A study of Mus musculus with 7 samples.

Results

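Kinesins are motor proteins that use ATP to act on microtubules. Mitotic kinesins build the bipolar spindle, align and move chromosomes and organise the midzone at which daughter cells separate, and most are made mainly in dividing cells. Transport kinesins carry vesicles, mitochondria, mRNA and protein complexes along microtubules in resting and dividing cells alike, and in T cells such motors serve the immune synapse, where the centrosome and secretory vesicles move towards the contacted cell.

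The family was taken as every row of the deposited count table whose gene name is Kif or Kifc followed by its number and letter. This gave 43 genes of 57180 in the table, which were divided by known role into 14 mitotic kinesins, 17 transport kinesins and 12 ciliary, regulatory or other kinesins. The name pattern leaves out Cenpe, a kinesin of the kinetochore, and the adaptors Kifap3 and Kifbp, which are described with the partner genes. Of the 43, 37 had enough counts to be tested, namely 13 mitotic, 16 transport and 8 other genes. Kif2b and Kif12 had no count in any library, and Kif17, Kif6, Kif27 and Kif19b stayed below 1 CPM (the count scaled to the normalized size of the library) in each library.

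The samples were regulatory T cells (Treg cells, CD4 T cells that restrain immune responses under the transcription factor FOXP3) sorted from B16-F0 tumours, a transplanted mouse melanoma. The host mice were Foxp3-Cre-YFP reporter animals, in which Cre recombinase and a yellow fluorescent protein mark cells with an active Foxp3 gene, and the label gives the genotype as WT for all 7 samples. One group was FOXP3-low (n = 4 libraries) and the other FOXP3-high (n = 3). The sources used here state no age, sex, sort gate or number of animals behind a sample, so the p-values reflect sample-to-sample spread alone, and that spread may be technical. Stranded mRNA libraries were counted per gene, with 9048771 to 14546999 counts a library.

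The labels were checked on Foxp3, which was at 310 to 397 CPM in FOXP3-low and 639 to 808 CPM in FOXP3-high. Markers of other cells differed between the groups. Among all genes tested, 24.6% were called lower in FOXP3-high and 21.8% higher, at an adjusted p under 0.05. All 15 macrophage and monocyte markers were lower in FOXP3-high, their sum running from 2178 to 2708 CPM in FOXP3-low but from 231 to 336 CPM in FOXP3-high. All 7 tested neutrophil markers (sums of 2729.5 to 3209 CPM against 98.0 to 238 CPM), all 10 dendritic cell and MHC class II markers (2349.7 to 3623 CPM against 193 to 316 CPM) and 4 of 6 B cell and plasma cell markers (398 to 529.8 CPM against 92.2 to 123 CPM) were lower too. All 11 melanoma and melanocyte markers were higher, with sums of 1431 to 2563 CPM against 3475 to 4774 CPM, and 16 of 17 T cell identity markers were higher, with sums of 3194 to 3672 CPM against 4673 to 5412 CPM. Of the macrophage list Cd163 and Ms4a7 were at 0 in at least 1 FOXP3-high library, and no gene of the melanoma or T cell lists was at 0 in any library. Endothelial markers summed to 105 to 351 CPM in the one group and 74.5 to 383 CPM in the other, with the top of both ranges in the libraries numbered 3. The part of these differences in the kinesin results was not tested, and in bulk samples fewer cells of a type and less RNA per cell cannot be told apart.

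The promoter sequences below show a feature that most mitotic kinesins shared and that most transport kinesins, like most genes, lacked. The choice of the family did not use it. The genes printed are examples that show the contrast, and shares over each class follow. Many genes of late cell cycle stages carry a CHR element (cell cycle genes homology region), often with CCAAT boxes upstream. Each stretch runs from 70 bases before to 50 bases after the start listed by RefSeq (build GRCm38.p6), 5′ to 3′ on the strand of the gene, with CHR letters (TTTGAA or TTCGAA, either strand) and CCAAT letters (either strand) in capitals. Kif11 and Kif15 are the spindle motors that slide antiparallel microtubules apart, Kif4 and Kif18b act on chromosome arms and on microtubule ends, Kif23 and Kif20b act in the midzone, and Kif3c and Kif5c are transport kinesins that rose.
Kif11 (chr19:37376312-37376431, plus strand): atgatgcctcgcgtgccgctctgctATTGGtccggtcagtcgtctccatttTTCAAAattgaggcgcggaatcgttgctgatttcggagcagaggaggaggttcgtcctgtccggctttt
Kif15 (chr9:122951011-122951130, plus strand): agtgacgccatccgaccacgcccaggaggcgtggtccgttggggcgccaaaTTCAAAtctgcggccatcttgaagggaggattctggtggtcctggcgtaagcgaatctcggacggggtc
Kif4 (chrX:100625995-100626114, plus strand): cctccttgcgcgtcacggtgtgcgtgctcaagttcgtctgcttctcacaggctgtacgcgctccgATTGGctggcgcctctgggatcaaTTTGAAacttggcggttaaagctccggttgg
Kif18b (chr11:102925075-102925194, minus strand): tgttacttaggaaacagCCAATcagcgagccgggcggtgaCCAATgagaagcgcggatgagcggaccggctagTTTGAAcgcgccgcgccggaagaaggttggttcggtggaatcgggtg
Kif23 (chr9:61946750-61946869, minus strand): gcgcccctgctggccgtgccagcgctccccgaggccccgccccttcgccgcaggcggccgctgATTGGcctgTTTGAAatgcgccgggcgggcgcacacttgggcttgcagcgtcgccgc
Kif20b (chr19:34922288-34922407, plus strand): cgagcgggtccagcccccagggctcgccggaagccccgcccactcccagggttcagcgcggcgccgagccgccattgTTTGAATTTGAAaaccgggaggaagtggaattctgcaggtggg
Kif3c (chr12:3365062-3365181, plus strand): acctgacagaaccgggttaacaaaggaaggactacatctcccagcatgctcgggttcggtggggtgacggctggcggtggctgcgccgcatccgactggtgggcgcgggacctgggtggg
Kif5c (chr2:49619216-49619335, plus strand): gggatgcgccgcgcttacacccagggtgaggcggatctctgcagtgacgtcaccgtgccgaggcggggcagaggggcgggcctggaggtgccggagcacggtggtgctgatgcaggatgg

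With the start site counted as 0, the CHR letters began at -19 in both Kif11 and Kif15, at 2 in Kif23, at 3 in Kif18b and at 19 in Kif4. Kif20b held 2 adjoining copies, at 7 and 13. Of the 43 genes, 33 had a promoter in the RefSeq table. Over the whole 300-base window, CHR letters were in 11 of 13 mitotic kinesins (84.6%, 95% exact binomial interval 54.5% to 98.1%). They were in 1 of 11 transport kinesins (9.09%, interval 0.23% to 41.3%), in 3 of 9 other kinesins and in 21.7% of all 27025 genes in the table. The transport interval includes the share of all genes. The mitotic kinesins without CHR letters were Kif18a and Kif2b, and the transport kinesin with them was Kif1a, at a second start inside the gene. CCAAT letters were in 9 of 13 mitotic kinesins (interval 38.6% to 90.9%), in 3 of 11 transport kinesins (interval 6.02% to 61.0%) and in 41.1% of all genes. Both CCAAT intervals include the share of all genes. Kif18a, which lacked CCAAT letters too, and the transport kinesin Kif3b, with CCAAT letters at -69, are not among the genes printed. CHR and CCAAT letters together were in 8 of 13 mitotic kinesins, in none of the 11 transport kinesins and in 8.61% of all genes. Within the 100 bases around the start, CHR letters were in 9 of 13 mitotic kinesins and in 6.12% of all genes. E2F letters (TTTGGCGC or TTTCCCGC, either strand) were in Kif15, directly before the CHR letters, and in Kif18a, and in 1.80% of all genes. Matches were counted for each motif separately, overlapping or not. The listed windows of Kif2c and Kif14 lie 3852 and 1547 bases inside the gene, and Kifc1 and Kifc5b are near copies of each other, so the counts are not of independent genes. A match is a description of the letters and not of binding.

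The comparison asked which kinesin genes were set apart by the FOXP3 level of tumour Treg cells. Every tested mitotic kinesin was lower in FOXP3-high, by 2.4-fold to 6.17-fold, whereas transport kinesins were spread on both sides of 0. Of 13 mitotic kinesins 13 were called lower and 0 higher, with a median log2 fold change of -1.98. Of 16 transport kinesins 6 were higher, 2 lower and 8 not called, with a median of 0.16. Over all 15838 genes tested, 46.5% were called (24.6% lower and 21.8% higher), with a median of 0.01. Calls are from the quasi-likelihood test of edgeR at an adjusted p under 0.05, with Benjamini-Hochberg adjustment over all genes. All 13 mitotic kinesins also had a log2 fold change below -1, as did 10.1% of all genes. In the 13 mitotic kinesins each FOXP3-low library lay above each FOXP3-high library, an order found in 26.8% of all genes. Of the 37 tested kinesins 26 had groups that did not overlap, beside 50.7% of all genes. The mitotic count was 13 under each other scaling, filter, test and set of libraries run. It was 12 with a class list that counts Kif2a, which was called higher, as mitotic and leaves out Kifc5b and Kif2b. The transport counts depended on the scaling: with libraries scaled to T cell identity genes, which moved the median of all genes by -0.51, 4 transport kinesins were higher and 8 lower, and the median of the class turned to -0.36. Under that scaling 8346 of all 15838 genes were lower and 691 higher.

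**Figure D1:**
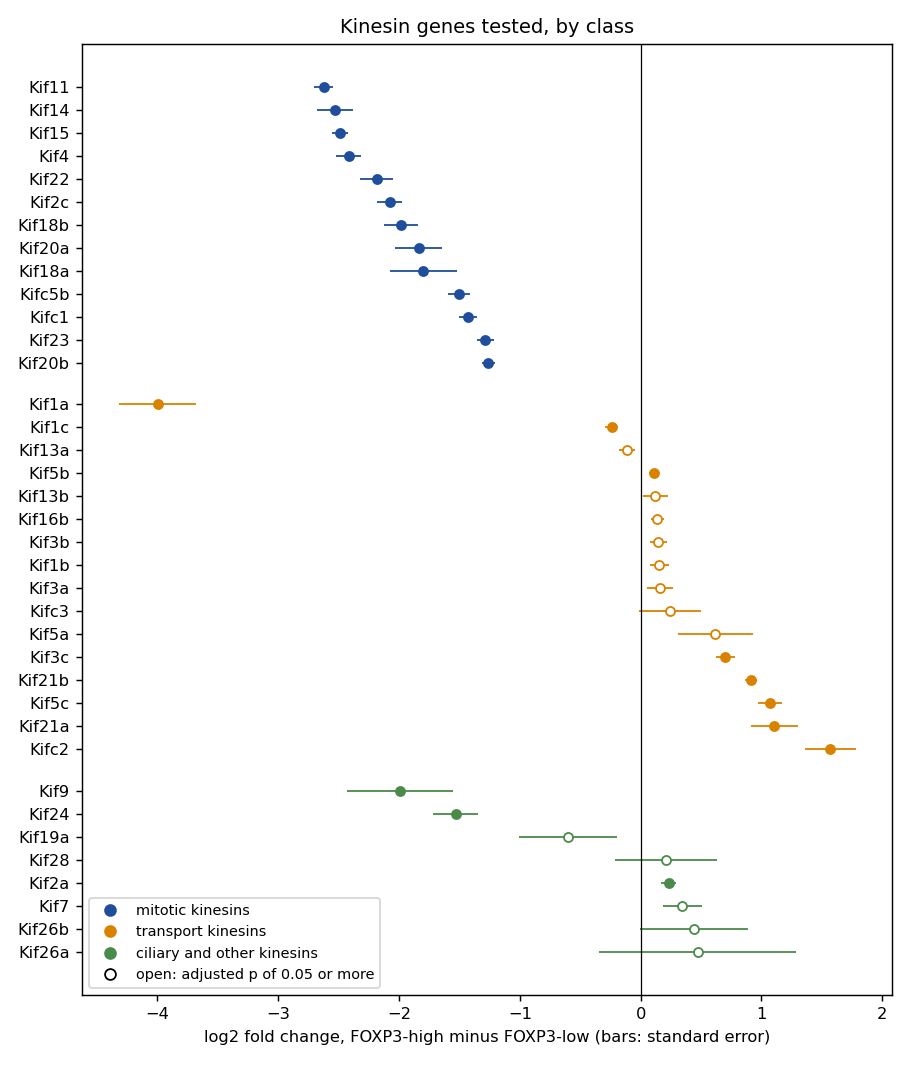
Log2 fold change (FOXP3-high minus FOXP3-low, bars: standard error) of the 37 tested kinesins, coloured by class; filled points have an adjusted p under 0.05. All 13 mitotic kinesins lie between -2.62 and -1.26, while the transport kinesins run from -4.00 (Kif1a) to 1.57 (Kifc2).

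The make-up of the family changed more than its total. Kinesins took 0.297% to 0.310% of all counts in FOXP3-low libraries, against 0.261% to 0.271% in FOXP3-high. Mitotic kinesins held 44.9% to 46.4% of the kinesin counts per kilobase of gene model in FOXP3-low against 14.9% to 16.7% in FOXP3-high. Transport kinesins held 50.6% to 51.9% and 78.9% to 80.4%. These shares compare genes within a library and do not depend on how libraries were scaled.

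**Figure D2:**
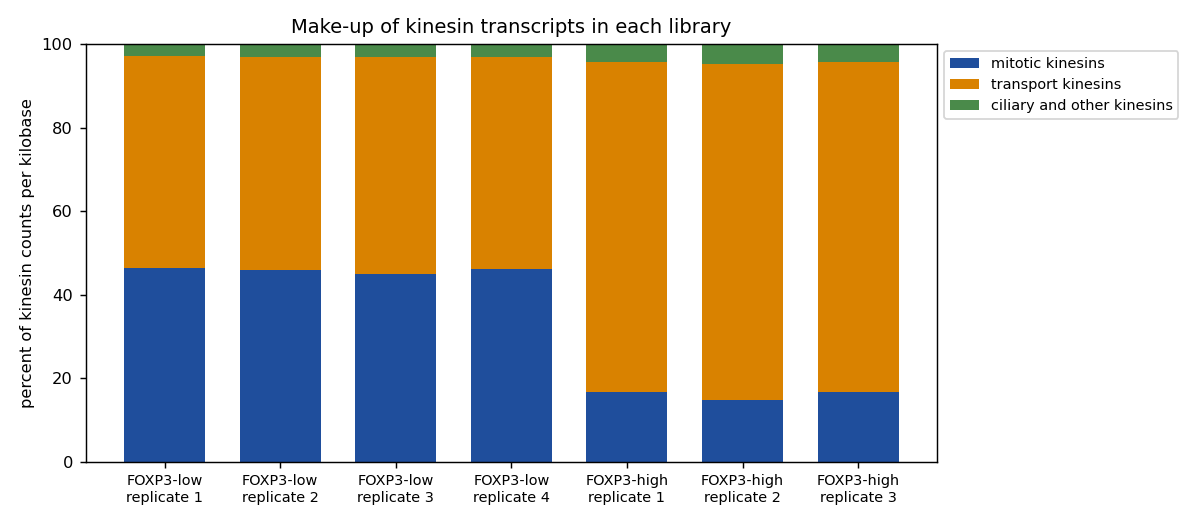
Share of kinesin counts per kilobase held by the 3 classes in each of the 7 libraries. The mitotic share is 44.9% to 46.4% in the 4 FOXP3-low libraries and 14.9% to 16.7% in the 3 FOXP3-high libraries.

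The motors that set up the bipolar spindle fell by unequal amounts. Kif11 (Eg5; ENSMUSG00000012443, chromosome 19, 37364851 to 37410307, plus strand, GRCm39), the tetrameric motor that pushes spindle poles apart, stood at 249, 231, 249 and 242 CPM in FOXP3-low replicates 1 to 4 and at 40.8, 34.2 and 42.9 CPM in FOXP3-high replicates 1 to 3. Its log2 fold change was -2.62 ± 0.0807 (standard error; edgeR adjusted p = 9.53e-08), the lowest of the mitotic class. Kif15 (ENSMUSG00000036768, chromosome 9, 122780111 to 122847790, plus strand), a motor that can stand in for Kif11 on the spindle, stood at 213, 191, 200 and 219 CPM and at 35.6, 39 and 35.4 CPM, a log2 fold change of -2.49 ± 0.0691 (edgeR adjusted p = 6.07e-08). The groups of both genes lay far apart, with no library in between. Kifc1 (HSET), a minus-end motor that draws poles together, fell less, from 61.1, 66.2, 61.9 and 59.3 CPM to 21.9, 23.4 and 23.9 CPM (log2 fold change -1.43 ± 0.0727, edgeR adjusted p = 6.91e-07). Its near copy Kifc5b stood at 39.5, 41.6, 37.6 and 36.5 CPM and at 13.7, 14.7 and 12.7 CPM. Reads of Kifc1 and Kifc5b can be split between the copies by the counting, so their separate levels are uncertain.

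Both motors of chromosome arms fell, Kif4 about as far as Kif15. Kif4, a chromokinesin of chromosome arms and the midzone, stood at 91.1, 89.4, 90.2 and 98.7 CPM in FOXP3-low and at 18.3, 14.2 and 19.2 CPM in FOXP3-high, a log2 fold change of -2.42 ± 0.105. Kif22 (Kid), which pushes chromosome arms towards the spindle equator, was nearly level among FOXP3-low libraries, at 119.6, 115.9, 116.6 and 117.2 CPM. In FOXP3-high it stood at 26.6, 19.3 and 31.3 CPM (log2 fold change -2.18 ± 0.136, edgeR adjusted p = 1.88e-06). Kif4 overlaps Pdzd11 on the opposite strand, which held 12.1% as many counts.

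The kinesins that shorten or cap microtubule ends fell by similar amounts. Kif2c (MCAK), a depolymerase that corrects wrong kinetochore attachments, stood at 52.2, 49.4, 50.2 and 45.8 CPM in FOXP3-low and at 13.2, 10 and 11.8 CPM in FOXP3-high (log2 fold change -2.08 ± 0.104). Kif18b, a plus-end motor that limits the length of astral microtubules, went from 30, 23.1, 25.3 and 26.6 CPM to 5.85, 6.23 and 7.83 CPM. Kif18a, which damps chromosome movements at the metaphase plate, had the lowest level of the called mitotic kinesins, at 8.86, 8.95, 9.11 and 10.2 CPM and at 1.89, 4.23 and 1.98 CPM. It was the least precise of the 13, with a log2 fold change of -1.80 ± 0.278 (edgeR adjusted p = 5.67e-04) that rested on 81 counts in FOXP3-high.

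Among the motors of the midzone and of cytokinesis, Kif20b and Kif23 fell the least of the class and Kif14 nearly as far as Kif11. Kif20b, a midbody motor, stood at 173, 171.6, 172 and 172 CPM in FOXP3-low and at 75.7, 72.9 and 67.1 CPM in FOXP3-high, a log2 fold change of -1.26 ± 0.0547 (edgeR adjusted p = 2.90e-07). Kif23 (MKLP1), the motor subunit of the centralspindlin complex, stood at 106, 106, 102 and 107 CPM and at 43.3, 39.3 and 46.9 CPM, a change of -1.29 ± 0.0709. In both genes the values within a group were close and the groups did not overlap. Kif20a (MKLP2), which brings the chromosomal passenger complex to the midzone, went from 59.6, 51.9, 62.2 and 60.1 CPM to 22.2, 10.9 and 15.7 CPM (log2 fold change -1.84 ± 0.196). Kif14, which binds citron kinase in the cleavage furrow, stood at 61, 55.2, 63.6 and 60.3 CPM and at 13.3, 8.13 and 9.53 CPM (log2 fold change -2.53 ± 0.151, edgeR adjusted p = 1.49e-06). Kif20a overlaps Cdc23 on the opposite strand, which held 124% as many counts and was itself lower in FOXP3-high (log2 fold change -0.44) (the strand setting is unknown here).

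**Figure D3:**
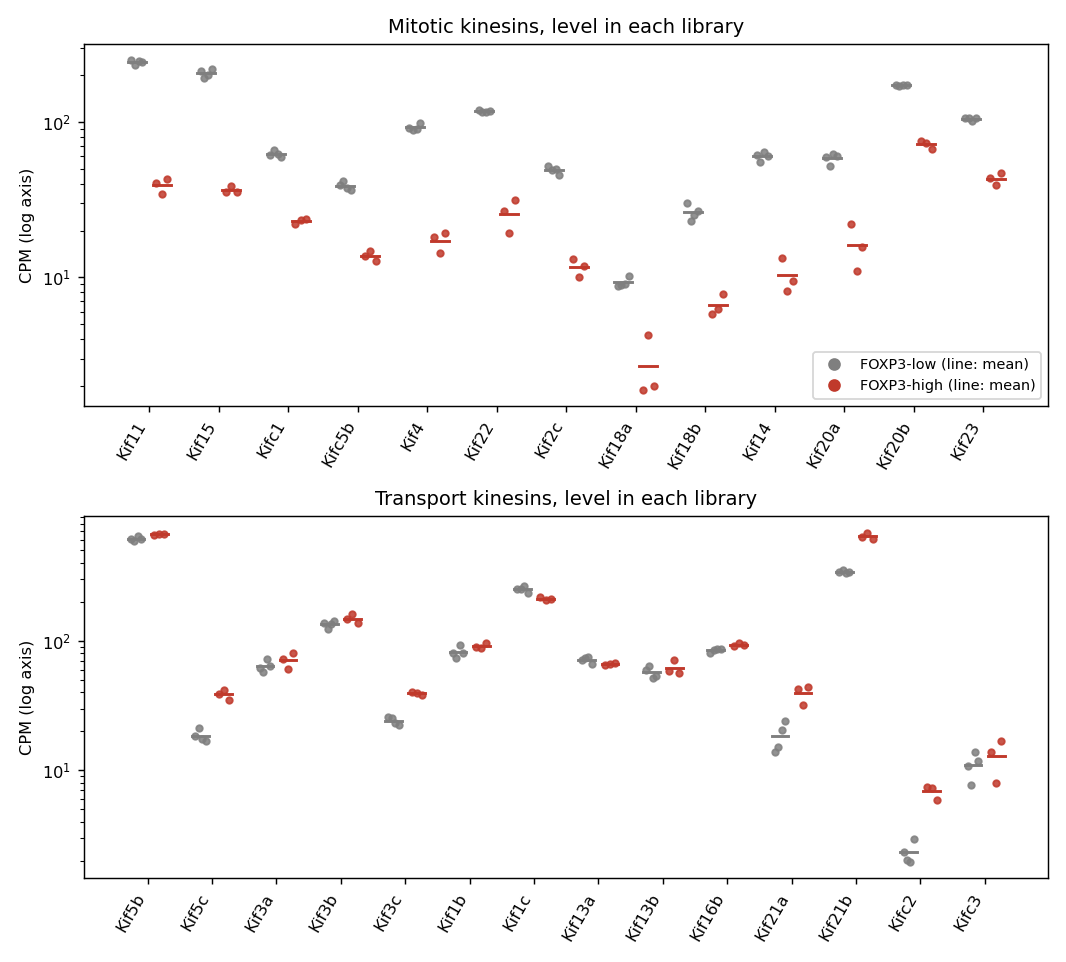
CPM (log axis) of mitotic kinesins (upper panel) and transport kinesins (lower panel) in each library, with grey points for the 4 FOXP3-low and red points for the 3 FOXP3-high libraries and a line at the group mean. The groups are apart in all 13 mitotic kinesins, whereas Kif3a, Kif3b, Kif1b, Kif13a, Kif13b and Kifc3 overlap. The tested transport kinesins Kif1a and Kif5a are not drawn.

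Ratios of counts within 1 library gave the unequal fall without any scaling. Kif20b had 0.693 to 0.742 counts for each count of Kif11 in FOXP3-low libraries and 1.56 to 2.13 in FOXP3-high. The ratio of Kif23 to Kif11 was 0.409 to 0.460 and 1.06 to 1.15. The ratio of Kif15 to Kif11 overlapped between the groups, at 0.804 to 0.904 and 0.824 to 1.14. Set against Mki67, the proliferation marker, Kif11 was at 0.0817 to 0.0873 in FOXP3-low against 0.0626 to 0.0688 in FOXP3-high, whereas Kif20b was at 0.0568 to 0.0620 and 0.108 to 0.134. Thus Kif11 was lower and Kif20b higher relative to Mki67 in each FOXP3-high library than in any FOXP3-low library. These pairs were chosen after the values were seen, and no test was made of them.

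The reference genes of proliferation gave the scale of the mitotic change. All 6 (Mki67, Top2a, Mcm3, Ccnb1, Cdk1 and Pcna) were lower in FOXP3-high, beside 24.6% of all genes. Their log2 fold changes ran from -2.29 (Mki67) to -1.34 (Pcna), with a median of -1.87. Of the 13 mitotic kinesins, Kif11, Kif14, Kif15 and Kif4 had lower log2 fold changes than Mki67. Cenpe, the kinetochore kinesin outside the name pattern, was at 467, 439, 464 and 491 CPM in FOXP3-low and at 91.5, 69.4 and 116 CPM in FOXP3-high, a log2 fold change of -2.33 ± 0.146.

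**Figure D4:**
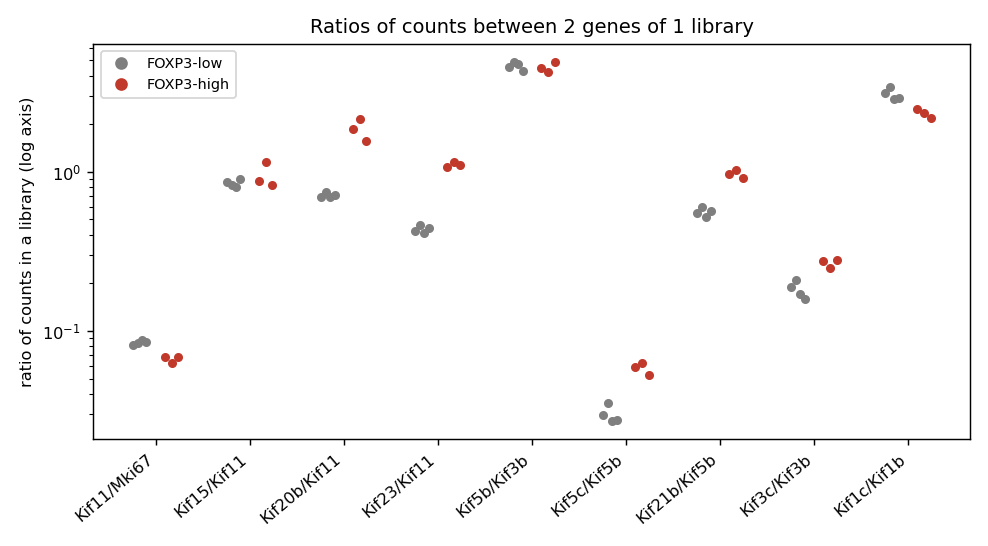
Ratio of counts between 2 genes of the same library (log axis), grey for FOXP3-low and red for FOXP3-high. Kif20b/Kif11 and Kif23/Kif11 are higher in each FOXP3-high library, Kif15/Kif11 and Kif5b/Kif3b overlap, and Kif5c/Kif5b, Kif21b/Kif5b and Kif3c/Kif3b are higher in FOXP3-high.

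The transport kinesins called higher were Kif5b, Kif5c, Kif3c, Kif21a, Kif21b and Kifc2, and those called lower were Kif1a and Kif1c. The kinesin-1 heavy chains carry mitochondria, vesicles and mRNA. Kif5b, the ubiquitous chain and the kinesin with the highest level per length in both groups (77.2 and 83.5 CPM per kilobase), stood at 618, 595, 641 and 610 CPM in FOXP3-low and at 661, 671 and 666 CPM in FOXP3-high. It was called higher by a small amount (log2 fold change 0.11 ± 0.0400, edgeR adjusted p = 0.0435). That call was lost with no filter on low counts (0.07, edgeR adjusted p = 0.341), without FOXP3-low replicate 2 (0.12, edgeR adjusted p = 0.0592), without FOXP3-high replicate 1 (0.09, 0.163) or 3 (0.11, 0.0877), without both libraries numbered 3 (0.13, 0.0815) and with a replicate block (0.11, 0.0875), and T cell identity scaling turned it to -0.41 (edgeR adjusted p = 0.00205). Kif5c, a chain best known from neurons, stood at 18.4, 21.1, 17.4 and 16.8 CPM in FOXP3-low and at 39, 42 and 35.1 CPM in FOXP3-high. Its log2 fold change of 1.07 ± 0.101 (edgeR adjusted p = 2.38e-05) was 0.55 with T cell identity scaling and still called. Kif5a, the third chain, was under 3 CPM in each library and not called (log2 fold change 0.62, edgeR adjusted p = 0.13). For each count of Kif5b, FOXP3-low libraries held 0.0271 to 0.0354 counts of Kif5c and FOXP3-high libraries 0.0527 to 0.0625.

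The kinesin-2 subunits Kif3a and Kif3b pair into the motor of intraflagellar transport and of other cargo. Kif3c can take the place of Kif3b beside Kif3a. Kif3a stood at 62, 57.8, 71.8 and 63.4 CPM in FOXP3-low and at 71.9, 61.1 and 80.9 CPM in FOXP3-high, with overlap and no call (edgeR adjusted p = 0.243). Kif3b stood at 137, 123, 135 and 142 CPM and at 148.7, 160, 136 CPM and was not called either (edgeR adjusted p = 0.122). Kif3c was higher in each FOXP3-high library, at 25.6, 25.5, 23.1 and 22.5 CPM and at 40.5, 39.4 and 37.9 CPM (log2 fold change 0.70 ± 0.0776, edgeR adjusted p = 6.85e-05). With T cell identity scaling Kif3c kept its direction but not its call (0.19, edgeR adjusted p = 0.120), Kif3a turned to -0.35 without a call (edgeR adjusted p = 0.0882), and Kif3b turned to -0.38 and was called lower (edgeR adjusted p = 0.00312). Kif3a passed without FOXP3-high replicate 2 (0.29, edgeR adjusted p = 0.0365), and Kif3b without FOXP3-high replicate 3 (0.20, 0.0466) and with upper quartile factors (0.19, 0.0416). Relative to Kif3b in the same library, Kif3c was at 0.158 to 0.208 in FOXP3-low against 0.246 to 0.278 in FOXP3-high. Relative to Kif3a it was at 0.321 to 0.442 in FOXP3-low against 0.469 to 0.645 in FOXP3-high. Kif3c overlaps Gm48512 and 1110002L01Rik on the opposite strand, with 18.1% and 37.8% as many counts.

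The kinesin-3 motors move vesicles and endosomes, and they held both transport kinesins that fell. Kif1a, known as the motor of synaptic vesicle precursors, stood at 5.93, 4.88, 5.82 and 4.43 CPM in FOXP3-low and at 0.258, 0.223 and 0.472 CPM in FOXP3-high. Its log2 fold change of -4.00 ± 0.320 (edgeR adjusted p = 8.46e-06) was the lowest of the family and rested on 269 counts against 10. For these the ratio of levels was 16.5, with a 95% exact interval of 8.84 to 34.8 for counting error alone. The FOXP3-high libraries held 3, 2 and 5 counts, so Kif1a passed the filter on low counts through FOXP3-low alone. The 7 neuron and glia markers summed to 1.38, 2.52, 3.36 and 10.5 CPM in FOXP3-low replicates 1 to 4 and to 5.24, 5.12 and 7.46 CPM in FOXP3-high. Among them Snap25 and Rbfox3 had 0 and 3 counts over all FOXP3-low libraries, and the single tested member, Tubb3, was called higher. The macrophage, neutrophil, dendritic and B cell markers of the opening were also lower in FOXP3-high. The part of these lists in the fall of Kif1a was not tested. Kif1c, an abundant motor of vesicle and mRNA transport, was slightly lower, at 251.6, 250.5, 265 and 233 CPM against 219, 206 and 211 CPM (log2 fold change -0.24 ± 0.0536, edgeR adjusted p = 0.00506). Kif1b, a motor of mitochondria and vesicles, was not called, at 81, 74.3, 92.5 and 80.2 CPM against 89.3, 87.6 and 96.8 CPM, but was called higher without FOXP3-low replicate 3 (0.21, edgeR adjusted p = 0.0347) and lower with T cell identity scaling (-0.36, edgeR adjusted p = 0.0385).

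The other kinesin-3 motors were not called. Kif13a, an endosome motor, stood at 70.8, 73.9, 75.4 and 66.1 CPM in FOXP3-low and at 65, 66 and 67.4 CPM in FOXP3-high. Kif13b stood at 59.6, 63.9, 51.2 and 54 CPM and at 58.8, 71 and 56.5 CPM, so that the groups of both genes overlapped. Kif16b, a motor of early endosomes, was higher in each FOXP3-high library (80.8, 84.4, 87.2 and 87 CPM against 91.9, 96 and 92.6 CPM), by a small step that missed the threshold (log2 fold change 0.14, edgeR adjusted p = 0.0614). Kif16b passed with upper quartile factors (0.19, edgeR adjusted p = 0.0161) and without FOXP3-low replicate 4 (0.17, 0.0496). With T cell identity scaling Kif13a, Kif13b and Kif16b were all called lower, with log2 fold changes from -0.63 to -0.38.

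Both kinesin-4 motors of the transport class, which also restrain microtubule growth, were higher in FOXP3-high. Kif21b (ENSMUSG00000041642, chromosome 1, 136059127 to 136105736, plus strand, GRCm39), known in T cells for its part in moving the centrosome to the immune synapse, stood at 339, 355.6, 332 and 343 CPM in FOXP3-low and at 637, 686 and 609.6 CPM in FOXP3-high, with a wide gap between the groups. Kif21b was thus 1.88-fold higher (log2 fold change 0.91 ± 0.0499, edgeR adjusted p = 9.97e-07). T cell identity scaling lowered this to 0.39 (edgeR adjusted p = 1.35e-04). Per kilobase Kif21b was the fourth kinesin in FOXP3-low (28.1 CPM per kilobase) and the second in FOXP3-high (52.9), while Kif11 went from the third (32.5) to rank 15 (5.27). Kif21b took 10.5% to 11.7% of all kinesin counts in FOXP3-low against 23.7% to 26.1% in FOXP3-high. Against Kif5b of the same library, Kif21b was at 0.518 to 0.597 in FOXP3-low against 0.916 to 1.02 in FOXP3-high. Kif21a, its paralog, stood at 13.8, 15, 20.5 and 24.1 CPM and at 42.4, 31.7 and 44.3 CPM, with a wider spread and a log2 fold change of 1.11 ± 0.193 (edgeR adjusted p = 0.0012), which T cell identity scaling lowered to 0.60 (edgeR adjusted p = 0.0476).

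The minus-end motors outside the mitotic class had low levels. Kifc2 stood at 2.36, 2.03, 1.96 and 2.93 CPM in FOXP3-low and at 7.39, 7.35 and 5.95 CPM in FOXP3-high, the highest log2 fold change of the family (1.57 ± 0.210, edgeR adjusted p = 2.27e-04). It overlaps Zftraf1 on the opposite strand, which held 801% as many counts and changed by a log2 fold change of 0.27, so Kifc2 is uncertain. Kifc3, a motor of cell junctions and the Golgi apparatus, overlapped between the groups at 10.8, 7.73, 13.7 and 11.7 CPM against 13.9, 8.02 and 17 CPM.

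Of the 8 tested ciliary, regulatory and other kinesins, 2 were lower (25%), 1 higher (12.5%) and 5 not called, beside 24.6% lower and 21.8% higher among all genes. With T cell identity scaling 4 were lower and 0 higher, beside 8346 lower and 691 higher of all 15838 genes. Kif24, which depolymerises microtubules at the mother centriole and restrains cilium formation, stood at 8.78, 8.30, 9.46 and 9.37 CPM in FOXP3-low and at 3.10, 3.79 and 2.45 CPM in FOXP3-high (log2 fold change -1.53 ± 0.187, edgeR adjusted p = 1.29e-04). Its promoter held both CHR and CCAAT letters, as did those of Kif26b, which was not called, and Kif27, which was not tested. The promoter of Kif9 held neither. Kif9, a kinesin of motile cilia, was low throughout and rested on 99 counts against 15 (log2 fold change -1.99 ± 0.437, edgeR adjusted p = 0.00445). With 5, 4 and 6 counts in the FOXP3-high libraries, Kif9 too passed the filter on low counts through FOXP3-low alone. Kif2a, a microtubule depolymerase of spindle poles and of neurons, stood at 58.4, 60.8, 58.9 and 62.7 CPM and at 68, 74.1 and 69.9 CPM. It was called higher by 0.23 ± 0.0611 (edgeR adjusted p = 0.0116) but turned to -0.28 with T cell identity scaling (edgeR adjusted p = 0.00912) and lost its call with no filter (0.19, edgeR adjusted p = 0.0671). Kif2a overlaps Dimt1 on the opposite strand (10.8% as many counts). Kif7, a regulator of Hedgehog signalling at the cilium tip, was not called (7.23, 9.35, 10.3 and 8.62 CPM against 12.7, 11.4 and 9.72 CPM; edgeR adjusted p = 0.113) and passed without both libraries numbered 3 (0.52, edgeR adjusted p = 0.0437). It overlaps the replication gene Ticrr on the opposite strand, which held 285% as many counts and went from 39.2 to 9.89 CPM. Kif19a, Kif26a, Kif26b and Kif28 were under 2 CPM in each library and not called, although Kif19a was called lower with T cell identity scaling (-1.12, edgeR adjusted p = 0.0387), and Kif28 overlaps Ahctf1 on the same strand.

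Partner genes were grouped by the kinesins they serve. Of 22 spindle and midzone partners 20 were lower and 1 higher, with a median log2 fold change of -2.21, beside 24.6% lower among all genes. Incenp, the scaffold of the chromosomal passenger complex, went from 880.1 ± 21.0 to 326 ± 15.3 CPM (mean ± SD, n = 4 and 3), and Cdca8 of the same complex from 144 ± 3.50 to 27.1 ± 4.03 CPM. Nusap1, which bundles spindle microtubules, had a log2 fold change of -2.80 ± 0.0879, and Spag5 (astrin), which keeps spindle poles intact, one of -2.34 ± 0.0895. The partners of Kif23 and Kif4 in the midzone, named after their values were seen, fell by amounts close to Kif23 itself: Racgap1, the other subunit of centralspindlin, had a log2 fold change of -1.24 ± 0.0869, and Prc1, the bundler of midzone microtubules, one of -1.24 ± 0.0836. The exceptions, also named after their values were seen, were Numa1, which anchors dynein at spindle poles and was higher (0.55 ± 0.0568; 0.03 and not called with T cell identity scaling), and Anln, a scaffold of the cleavage furrow that was not called (-0.40, edgeR adjusted p = 0.118; called lower at -0.90 with T cell identity scaling).

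Tubulins, the track of all these motors, were mostly lower. Of 13 tested, 10 were lower and 2 higher, beside 24.6% lower and 21.8% higher among all genes, with a median log2 fold change of -0.79. The widely expressed Tubb5 went from 423 ± 2.39 to 169 ± 15.8 CPM, Tubb4b from 134 ± 3.86 to 54.2 ± 4.84 CPM, Tuba1b from 147 ± 10.5 to 45.2 ± 7.61 CPM and Tuba1c from 105 ± 8.27 to 35.3 ± 4.59 CPM. Tubb3 and Tubb4a, named after their values were seen, were higher at low levels (log2 fold changes 1.14 and 1.19), Tubb3 without a call under T cell identity scaling (0.63, edgeR adjusted p = 0.125). Tubulin genes are near copies, so reads can be split between them.

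Of 22 tested cargo adaptors and regulators of transport kinesins, 10 were higher and 3 lower, with a median of 0.13, beside 21.8% higher and 24.6% lower among all genes. With T cell identity scaling 1 was higher and 12 lower, and the median was -0.39. Of all 15838 genes, 691 were then higher and 8346 lower. Madd, a regulator of Rab3 that links it to Kif1 motors, rose from 184 ± 12.8 to 335 ± 37.2 CPM (log2 fold change 0.86 ± 0.0810) and was the single member still called higher under that scaling, at 0.34. Fyco1, an adaptor of late endosomes and autophagosomes for kinesin-1, had a log2 fold change of 0.69 ± 0.0673, and Mapk8ip3 (JIP3), a scaffold between kinesin-1 and dynein, one of 0.52 ± 0.0644; neither was called with T cell identity scaling (0.16 and 1.44e-04). Its relative Spag9 (JIP4) was lower (-0.42 ± 0.0621). Arl8b (-0.23), a lysosomal GTPase, and Rab11fip5 (-1.92), an effector of recycling endosomes, also fell; both were picked out with their values in view. Kifap3, the cargo subunit of kinesin-2, and Kifbp, which binds and inhibits several kinesins, were not called (-0.33, edgeR adjusted p = 0.0723, and 0.04, edgeR adjusted p = 0.743), and both were called lower with T cell identity scaling (-0.85 and -0.48).

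Dynein and dynactin, the motor complex that runs against most kinesins, gave 7 higher and 7 lower of 25 tested, with a median of -0.03, beside 21.8% higher and 24.6% lower among all genes. With T cell identity scaling 0 were higher and 20 lower, with a median of -0.54. Of all 15838 genes, 691 were then higher and 8346 lower. Ndel1, a dynein regulator of mitosis and centrosomes, fell from 192 ± 7.43 to 99.1 ± 8.99 CPM, and Hook1 and Dynll2 had log2 fold changes of -0.63 ± 0.0701 and -0.43 ± 0.0511. The heavy chain Dync1h1 rose from 560.4 ± 16.96 to 737 ± 6.52 CPM with TMM and turned to -0.12 (edgeR adjusted p = 0.196) with T cell identity scaling. Intraflagellar transport genes, the cargo trains of Kif3a and Kif3b, gave 2 higher and 3 lower of 21, with a median of -0.05. Ift81 (0.91 ± 0.170) and Ift80 (0.49 ± 0.0914) were higher, and Ift57 (-0.51 ± 0.113), Ift74 (-0.29 ± 0.0774) and Ift22 (-0.83, named after its value was seen) were lower; with T cell identity scaling 0 of the 21 were higher and 14 lower, with Ift81 at 0.39 and not called and Ift80 at -0.03.

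**Figure D5:**
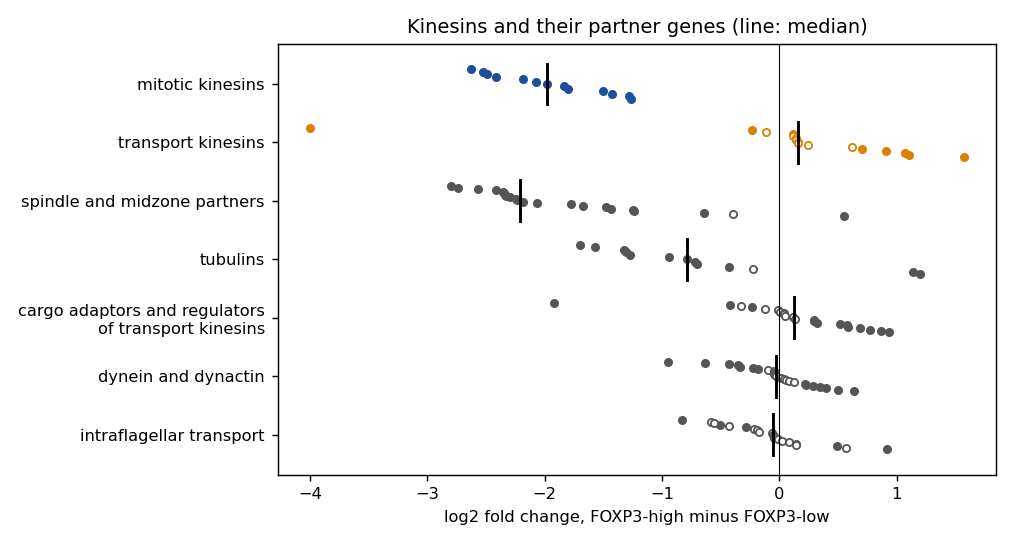
Log2 fold change (FOXP3-high minus FOXP3-low, TMM) of each tested gene in both main kinesin classes and in 5 partner lists; filled points have an adjusted p under 0.05 and the black line is the median of the list. Mitotic kinesins (median -1.98), spindle and midzone partners (-2.21) and tubulins (-0.79) lie to the left, while transport kinesins and their adaptors, dynein and intraflagellar transport genes lie around 0; with T cell identity scaling the medians of these last 4 lists lie between -0.58 and -0.36.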

How the data were processed

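Bulk RNA of 7 samples was measured, and groups came from the sample titles. The authors deposited 1 table of whole-number counts per gene, without normalization, with gene coordinates and lengths in bases. The submitters' processing notes list the programs featureCounts, STAR (2.5.3a) and fastp (0.23.4), along with builds GRCm39 and GRCh38. Positions in the table were read as GRCm39, while promoter sequences are RefSeq's for GRCm38.p6. The sources used here do not say how strand and shared reads were handled.

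Counts were fitted in R 4.3.3 with edgeR 4.0.16 (filterByExpr at its minimum count, 10, and minimum total, 15; TMM, glmQLFit, glmQLFTest, group as the single term), with Benjamini-Hochberg adjustment over 15838 genes at 0.05. Standard errors were derived from the fold change and its F statistic (absolute value over the root of F), and CPM uses TMM library sizes, so that 1 CPM is 8.98 to 14.3 counts. The common coefficient of biological variation was 0.178. Columns of sample values left out numbered 0, and 0 rows lacked a gene name. Replicates of a group differed beyond counting noise in each pair (chi-square per gene from 3.98 to 12.2). The step was tested on simulated data.

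Members, classes and lists were chosen with earlier results of these data known. Named genes were all members; up to 4 members of each partner list with the smallest adjusted p; and markers. Values per library are given for members with a mean of at least 5 CPM. Kif19b, absent from the written lists, was placed with the other kinesins, and Kif25 of those lists matched no row. Alternatives were DESeq2 1.42.0 size factors, upper quartile factors, T cell identity scaling, no filter, the DESeq2 test, limma-voom (limma 3.58.1), glmTreat against a log2 fold change of 1, each library left out, both libraries numbered 3 left out, a replicate block, other class lists and a shorter promoter window. Intervals cover counting error only.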

Additional observations from a re-analysis of the deposited data

Results flagged for a closer look

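Of the 37 tested kinesins, 1 had a FOXP3-low library apart from the other 3. Kif23 was at 101.8 CPM in FOXP3-low replicate 3 and at 106 to 107 CPM in the others, so that the gap was 0.876 of the range of the group, above Dixon's 95% critical value for 4 samples. Chance flags about 1 in 20 such groups.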

How the results depend on the processing

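All 13 mitotic kinesins stayed lower under each other scaling, filter, test and set of libraries run. The class list with Kif2a and without Kifc5b and Kif2b had 12 lower. Transport kinesins numbered 5 to 7 higher and 2 lower when 1 library was left out, and 5 higher with the replicate block, without both libraries numbered 3 and with no filter. With glmTreat 1 transport kinesin was higher and 1 lower, and 1118 genes passed in all (137 higher, 981 lower) in place of 7357. The shorter transport list, which left out Kif17, Kif21a, Kif21b, Kifc2 and Kifc3, had 3 members higher. T cell identity scaling gave 691 genes higher and 8346 lower and 8 transport kinesins lower; it turned the log2 fold changes of Kif26a (-0.0304), Kif26b (-0.0799), Kif28 (-0.32), Kif2a (-0.28), Kif7 (-0.18), Kif13b (-0.40), Kif16b (-0.38), Kif1b (-0.36), Kif3a (-0.35), Kif3b (-0.38), Kif5b (-0.41) and Kifc3 (-0.26). With 1 library left out Kif26a ran from -0.0476 (without FOXP3-high replicate 3) to 0.983, and Kif28 turned to -0.0648 without FOXP3-high replicate 1. Beyond the division of libraries by another quantity and the smaller number of samples, the cause was not tested. With upper quartile factors 3898 genes were higher and 3591 lower, against 3459 and 3898 with TMM. These factors gave 8 transport kinesins higher and 2 lower. The share of mitotic kinesins with CHR letters was 69.2% in the shorter window.

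The titles do not state that replicate numbers pair the samples. Deviations of samples with number 1, 2 and 3 correlated at -0.10, 0.10 and 0.53. FOXP3-high replicates 1 and 2 correlated best with FOXP3-low replicates 3 and 1. Deviations from the mean of so few libraries are tied to each other, so these values cannot decide whether samples were paired. With the replicate block 7029 genes passed, and of the kinesins called without it Kif5b alone was not called.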
